A study of Mus musculus with 26 samples.

Results

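The mitosis and spindle genes described here are 55 genes listed by symbol, from the proliferation marker Mki67 to the transcription factor Mybl2. They were sorted into 11 roles, and all 55 were found, each on 1 row with the same genomic interval, in all 26 libraries, among 23168 gene symbols with a value in every library. The libraries were made from RNA of C57BL/6 mouse thymocytes of 6 to 8 weeks. DN1eP cells (4 libraries) were sorted from the thymus as Lin-, CD44+, CD25-, CD24 low, CD5+, CD27+, Ly108- and CXCR3+ cells that lacked the Vα14Jα18 T cell receptor. DN1eP-NKT cells (4 libraries) carried that receptor and were obtained from DN1eP cells after 10 days on a layer of OP9 stromal cells bearing the Notch ligand Dll-1, with IL-2 and IL-7 at 5 ng per ml each. The thymic natural killer T (NKT) cells, which also carried it, bound CD1d dimers loaded with αGalCer. They were divided into stage 1 (NKT-1, CD44- NK1.1-, 5 libraries), stage 2 (NKT-2, CD44+ NK1.1-, 7 libraries) and stage 3 (NKT-3, CD44+ NK1.1+, 6 libraries). The labels do not say whether libraries of a group came from separate animals or cultures, so every p-value below measures the spread between these libraries only.

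When a cell enters mitosis, cyclin B and the kinase CDK1 switch on a wave of phosphorylation, condensin packs the chromosomes, and kinesins and microtubule factors build the spindle. Kinetochores hold the chromosomes on the spindle while the checkpoint proteins delay the anaphase-promoting complex, which then destroys cyclin B and the securin that holds separase back. Most of these genes are transcribed late in the cell cycle, under the DREAM, MYB-MuvB and FOXM1 complexes, and their RNA is therefore high in populations that hold many dividing cells. In the thymus, NKT precursors are known to divide in the early stages after selection and to divide little once they carry NK1.1.

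The deposited values were FPKM (fragments per kilobase of transcript, scaled to the fragments of the library), so levels are per transcript length, and differences are given on the log2(FPKM + 1) scale, which understates the change of genes at low levels. The libraries fell into 2 sets of 13 by the median FPKM of expressed genes, and groups were compared within a set wherever both were in it. The lower-median set held DN1eP 1 to 4, NKT-1 3 to 5, NKT-2 5 to 7 and NKT-3 4 to 6. The higher-median set held DN1eP-NKT 1 to 4, NKT-1 1 and 2, NKT-2 1 to 4 and NKT-3 1 to 3. The depth read from the deposited intervals spanned 33.6-fold, and the median half-width of the members' intervals was 6.20% to 73.1% of the value per library. The shallow libraries were DN1eP 2 to 4, DN1eP-NKT 2 to 4, NKT-1 2, NKT-2 2 to 4 and NKT-3 1 to 3, and values near 0 in them are the least certain. Of the sort markers, Cd44 stayed at or under 4.98 FPKM in NKT-1 and reached 27.5 FPKM or more in all other groups. Klrb1c, which encodes NK1.1, was at 439.9 FPKM or more in NKT-3 and at 170.4 to 495 FPKM in DN1eP. Of markers that the DN1eP gate holds low at the cell surface, Slamf6 (Ly108) was at 0.174, 13.0, 12.7 and 7.11 FPKM and Cd24a at 0.937, 12.4, 15.9 and 7.64 FPKM in DN1eP 1 to 4, so RNA of both was low in library 1 and present in the others. Il2ra (CD25), which the gate also excludes, went the other way, at 14.4, 6.91, 10.1 and 8.14 FPKM. These values lay above every thymic NKT library (at most 6.42 FPKM) and were highest in library 1. Zbtb16, the defining transcription factor of the NKT lineage, was at 6.90, 4.51, 5.07 and 5.42 FPKM in DN1eP-NKT, against 80.7 and 113 FPKM in NKT-1 of the same set. NKT-2 of that set held 47.1 to 76.0 FPKM and NKT-3 held 12.8 to 21.8 FPKM, so this marker was low in the cultured cells. The other NKT genes listed, Cd3d, Cd3e, Cd3g, Cd44 and Klrb1c, were at 11.3 FPKM or more in every DN1eP-NKT library. With Zbtb16 their sum was 954 to 1304 FPKM, against 1362 to 1834 in NKT-1, 1289 to 2215 in NKT-2 and 2608 to 3105 in NKT-3 of the set. In DN1eP, which lacked the receptor, the same sum was 3772 to 5789 FPKM in the other set. The sum thus does not tell NKT cells from these precursors.

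Across the groups the members formed a high block in DN1eP-NKT, NKT-1 and NKT-2 and a low block in DN1eP and NKT-3. The mean log2(FPKM + 1) over the 55 members was 2.26 ± 0.27 in DN1eP (SD, n = 4), against 4.40 ± 0.05 in NKT-1, 4.28 ± 0.34 in NKT-2 and 2.33 ± 0.18 in NKT-3 of the lower-median set (n = 3 each). It was 5.38 ± 0.21 in DN1eP-NKT (n = 4), against 5.06 ± 0.10 in NKT-1 (n = 2), 5.02 ± 0.04 in NKT-2 (n = 4) and 2.15 ± 0.18 in NKT-3 (n = 3) of the higher-median set. In each set the levels of NKT-1 and NKT-2 did not differ beyond their spread, nor did those of DN1eP and NKT-3. All 55 members were at 1 FPKM or more in every DN1eP-NKT and NKT-1 library, whereas 32 were in every DN1eP library, and 40 and 34 were in every NKT-3 library of the lower-median and higher-median sets. In bulk RNA, fewer dividing cells and less RNA of these genes per dividing cell cannot be told apart.

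**Figure D1:**
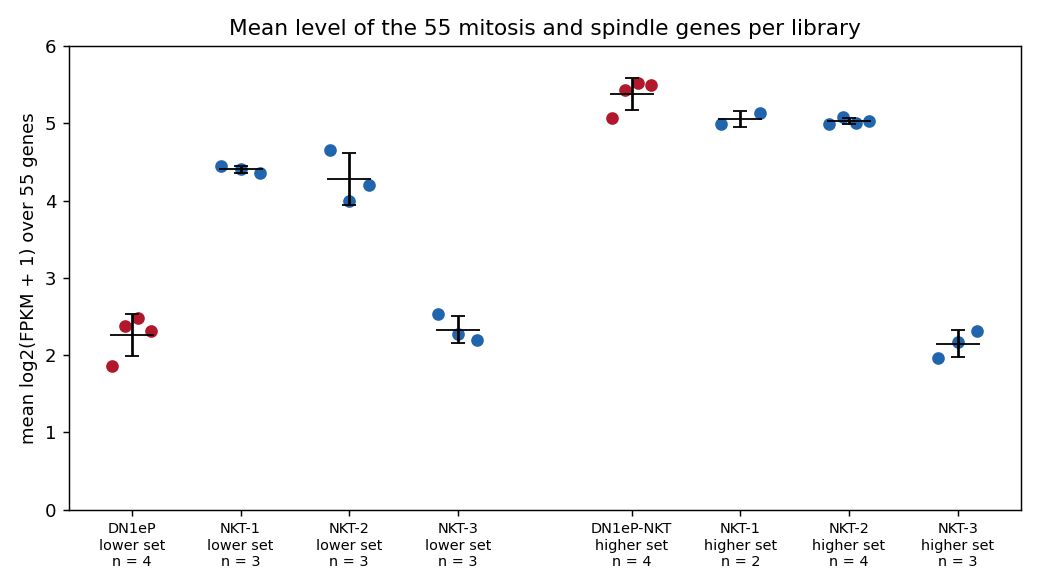
Mean log2(FPKM + 1) over the 55 members in each library, by group and library set; points are libraries and bars the mean ± SD. The DN1eP libraries lie between 1.87 and 2.48, level with NKT-3, and the DN1eP-NKT libraries between 5.07 and 5.52, level with or above NKT-1 and NKT-2.

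**Figure D2:**
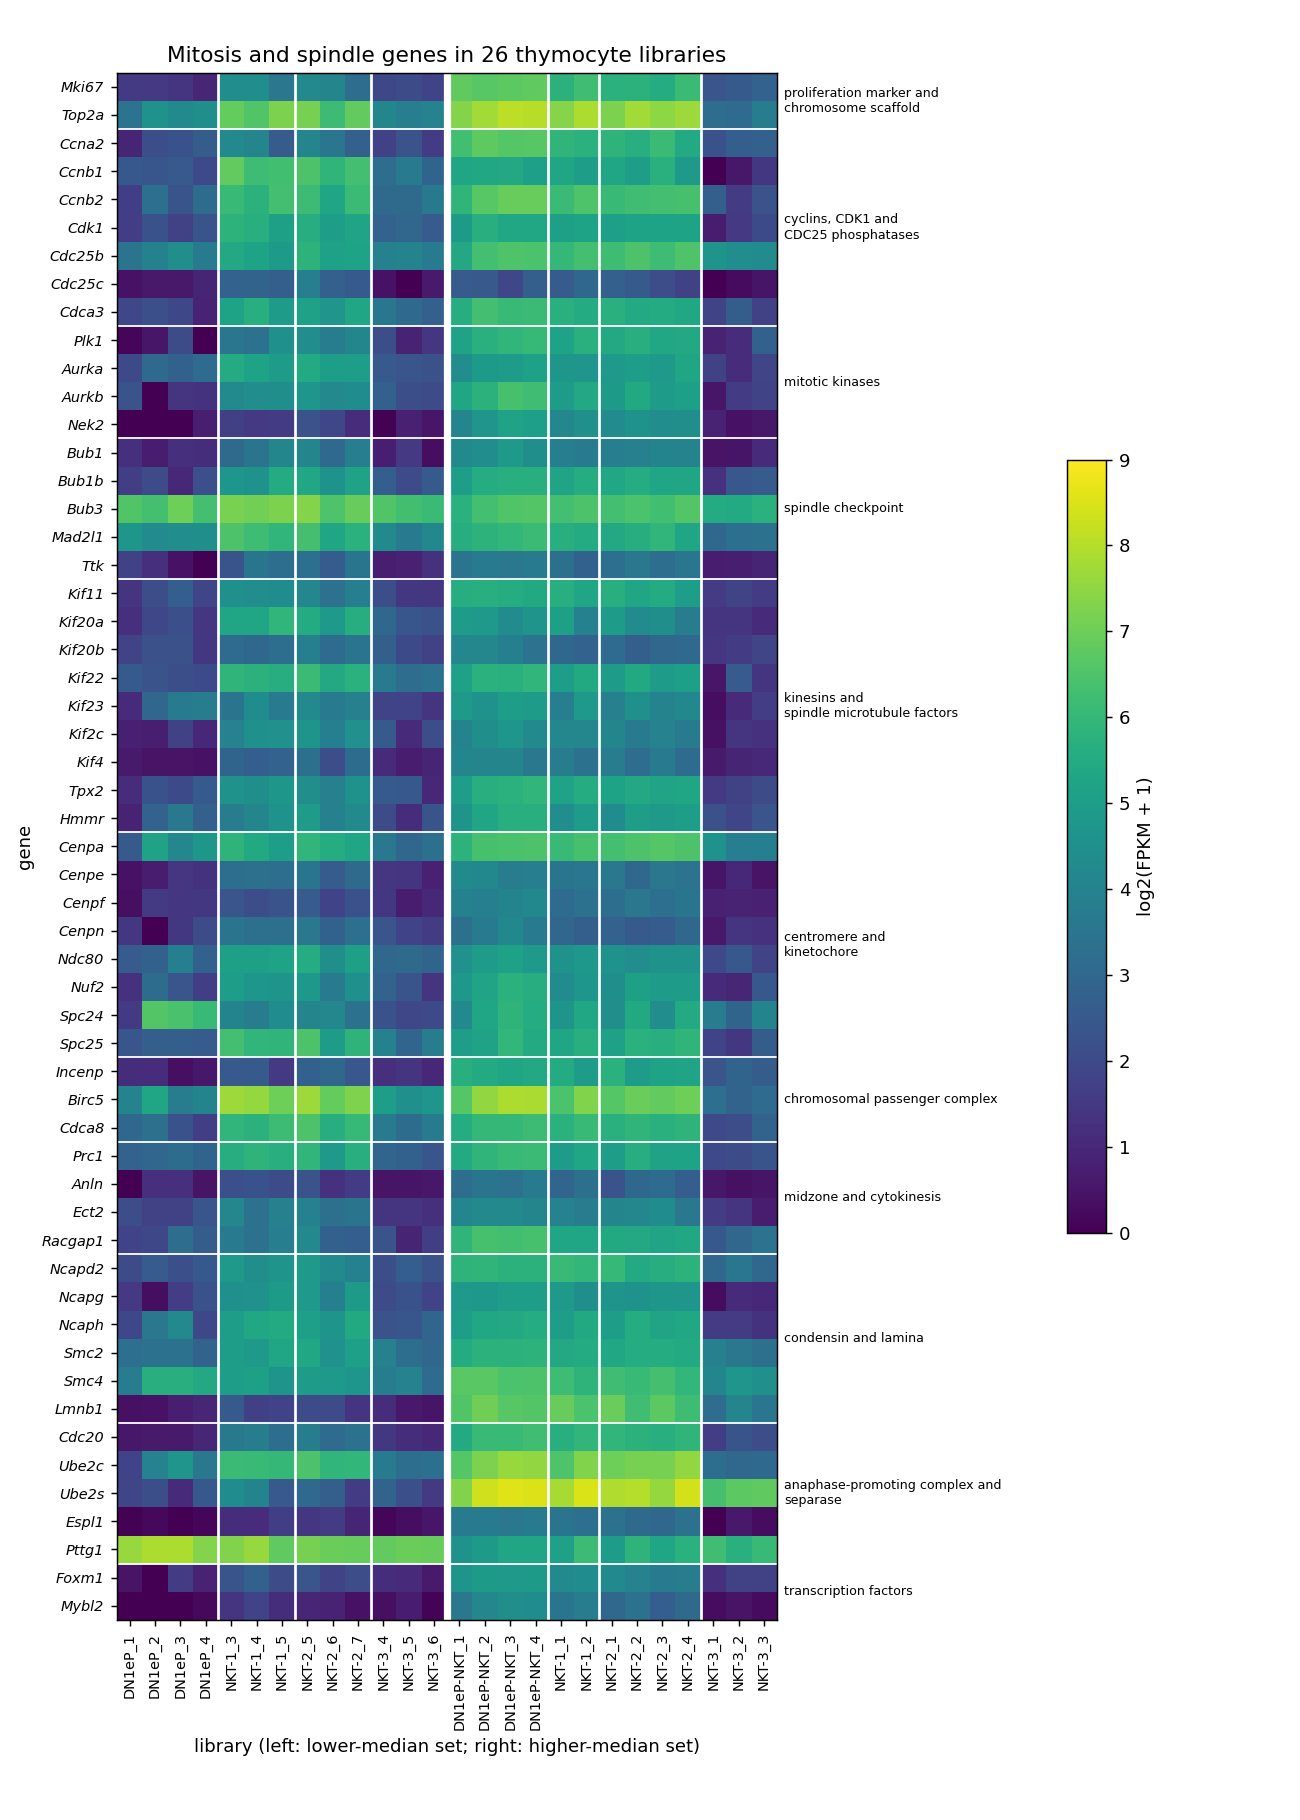
Level of each member, log2(FPKM + 1), in each of the 26 libraries, with members in rows ordered by role and libraries in columns by set and group. The columns of DN1eP and NKT-3 are dark (low) for nearly all members; Pttg1, Spc24, Smc4 and Bub3 stand out from the other rows.

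The members also share promoter letters that the choice of genes did not use. RefSeq windows of 300 bases (GRCm38.p6, 250 bases before to 50 after the gene start) were found for 45 of the 55 members. TTTGAA or TTCGAA, the core of the cell cycle genes homology region (CHR), was present on either strand in 36 of the 45 windows (80%), against 19.4% of 27025 windows of all gene symbols. CCAAT, the letters bound by the factor NF-Y, was present on either strand in 34 windows (75.6%), against 37.9% of all windows, and both motifs together in 31 windows, against 7.70% of all. The E2F forms TTCCCGC and TTCGCGC as well as TTGGCGC and TTGCCGC were present on either strand in 9 of the 45 windows (20%), against 9.69% of all. CCAAT overlapped an E2F form in Ccnb1 and Ect2, and none of these letters occurred in the windows of Mad2l1, Nuf2, Birc5, Pttg1 and Mybl2. The 200 bases before the start are shown, 5′ to 3′ on the gene's strand, for 4 members that followed the block, for Bub3, which changed little, and for Mybl2, which has no match. They are Cdk1 (chr10:69352913-69353112, minus strand), Kif11 (chr19:37376182-37376381, plus strand), Cdc20 (chr4:118437344-118437543, minus strand), Ube2c (chr2:164769729-164769928, plus strand), Bub3 (chr7:131560170-131560369, plus strand) and Mybl2 (chr2:163054435-163054634, plus strand). Capitals mark TTTGAA (or TTCAAA, its reverse complement), CCAAT (or ATTGG) and the E2F forms.
Cdk1: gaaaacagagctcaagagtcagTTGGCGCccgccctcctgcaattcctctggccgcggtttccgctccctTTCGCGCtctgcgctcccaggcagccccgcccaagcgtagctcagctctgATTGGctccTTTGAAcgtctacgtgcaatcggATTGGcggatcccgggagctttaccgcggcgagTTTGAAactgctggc
Kif11: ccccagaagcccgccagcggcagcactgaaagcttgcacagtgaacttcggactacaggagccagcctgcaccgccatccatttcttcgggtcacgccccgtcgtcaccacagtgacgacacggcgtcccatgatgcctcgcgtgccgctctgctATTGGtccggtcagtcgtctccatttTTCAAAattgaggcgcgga
Cdc20: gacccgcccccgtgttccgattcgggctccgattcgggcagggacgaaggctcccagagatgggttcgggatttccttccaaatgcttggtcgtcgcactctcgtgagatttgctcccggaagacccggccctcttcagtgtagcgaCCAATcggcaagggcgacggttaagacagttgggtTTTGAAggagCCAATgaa
Ube2c: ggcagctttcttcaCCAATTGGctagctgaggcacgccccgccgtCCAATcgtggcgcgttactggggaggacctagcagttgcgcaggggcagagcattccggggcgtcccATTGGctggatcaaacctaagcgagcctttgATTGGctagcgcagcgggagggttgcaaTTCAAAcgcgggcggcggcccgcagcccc
Bub3: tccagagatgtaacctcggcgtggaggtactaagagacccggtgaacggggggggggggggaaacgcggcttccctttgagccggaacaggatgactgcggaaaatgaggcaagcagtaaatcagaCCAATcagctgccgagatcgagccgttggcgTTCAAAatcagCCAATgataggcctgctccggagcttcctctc
Mybl2: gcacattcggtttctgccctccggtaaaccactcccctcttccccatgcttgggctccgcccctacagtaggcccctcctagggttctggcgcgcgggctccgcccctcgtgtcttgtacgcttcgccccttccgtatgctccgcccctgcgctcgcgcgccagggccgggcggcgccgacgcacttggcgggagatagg
Cdk1 holds all 3 kinds of motif in these bases, Kif11, Cdc20, Ube2c and Bub3 hold TTTGAA and CCAAT, and Mybl2 holds none of the forms searched. Its last bases do hold TTGGCGG, which is close to the listed E2F form TTGGCGC but was not searched, so no lack of an E2F site follows. Bub3, which was not called in DN1eP against any stage, shares these letters with Cdk1 and Cdc20, which were called against NKT-1 and NKT-2. A match is a description of the letters and not of a bound site.

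DN1eP cells held far less RNA of the mitotic genes than NKT-1 and NKT-2 cells of the same library set. Of the 55 members, 49 were lower in DN1eP than in NKT-1 and 0 higher, where 16.3% of 10647 tested genes were called lower and 13.6% higher (limma, Benjamini-Hochberg adjusted p under 0.05). Their median log2 difference was -2.30, against -0.08 over all tested genes. The largest differences were those of the cyclin gene Ccnb1 (-4.09 ± 0.25 SE), the kinesin gene Kif20a (-3.80 ± 0.31 SE) and Cdca3, a trigger of mitotic entry (-3.55 ± 0.32 SE). In DN1eP minus NKT-2, 46 members were lower, where 8.94% of tested genes were, and 1 was higher, the securin gene Pttg1 (0.67 ± 0.21 SE), where 15.6% were. The median was -2.11, against 0.10 over all tested genes. Not called against NKT-1 were Cenpa (-1.27), Kif23 (-0.96), Bub3 (-0.60), Smc4 (0.20), Pttg1 (0.45) and Spc24 (1.09). Not called against NKT-2 were Kif23 (-1.09), Anln (-0.96), Racgap1 (-0.82), Mybl2 (-0.71), Ube2s (-0.55), Bub3 (-0.34), Smc4 (0.29) and Spc24 (1.28). Against each of the 2 stages, 49 members had every DN1eP library on 1 side of every stage library, where 33.4% of tested genes did against NKT-1 and 25.9% against NKT-2.

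On the log2(FPKM + 1) scale, DN1eP and NKT-3 cells were close to each other in nearly all members. This scale shrinks differences at low levels, where 7 members were under 1 FPKM in every DN1eP library and 5 in every NKT-3 library of the set. The median half-width of the members' intervals was 41.3% to 57.6% in DN1eP 2 to 4, so differences in FPKM could go uncalled. In DN1eP minus NKT-3, 5 of 55 members were called, where 15.5% of tested genes were called in either direction, and the median difference was -0.12, against 0.19 over all tested genes. Smc4, a condensin ATPase, and Pttg1 were higher in DN1eP (1.49 ± 0.38 SE and 0.78 ± 0.21 SE), and Cdca3, the chromosome-arm kinesin gene Kif22 and Ccnb1 were lower (-1.41 ± 0.32 SE, -1.19 ± 0.23 SE and -0.93 ± 0.25 SE). All 5 calls were lost when NKT-3 library 6 was left out, while 3 members were called without DN1eP library 2, 3 or 4 or NKT-3 library 4, and 11 without DN1eP library 1. With upper-quartile scaling, 1 member was higher in DN1eP than in NKT-3 and 8 were lower, whereas 7 were higher and 2 lower with all 26 libraries and a set term. With that scaling the call of Pttg1 against NKT-2 was lost. Outside these calls, Spc24 and Kif23 had the next largest positive differences (3.11 and 1.21) and Aurkb the next largest negative one (-1.08). Against the mean of the 3 stages, 43 members were lower in DN1eP, where 11.9% of tested genes were, led by Ccnb1 (-2.96), Cdca3 (-2.77) and Kif20a (-2.76), and Pttg1 was higher (0.63), where 19.4% were.

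The DN1eP group was itself uneven. Library 1 had the lowest value of the 4 for 27 of the 55 members and a module mean of 1.87, against 2.31 to 2.48 in libraries 2 to 4, and it was also deeper, at 23.7 times the shallowest library, against 1 to 1.68 times in libraries 2 to 4. Without it, 50 members were called in DN1eP minus NKT-1 and 47 in DN1eP minus NKT-2. Of 11 myeloid and mast cell markers, 9 reached 1 FPKM in at least 1 DN1eP library, and their summed level was 415 to 465 FPKM in DN1eP, against 2.54 to 87.8 in NKT-1, 0.436 to 67.5 in NKT-2 and 1.26 to 34.7 in NKT-3 of the set. The sum was mostly Mpo in library 1 (271 FPKM) and Prss34 in libraries 2 to 4 (334 to 375 FPKM), Mcpt4 was at 0 in all 4, and the part of such cells in the differences was not tested. Of 8 markers of immature thymocytes, Dntt was at 0.626 FPKM in library 1 and 8.78 to 12.6 FPKM in libraries 2 to 4. Their summed level was 13.3 FPKM in library 1 and 25.5 to 28.4 FPKM in the others, against 32.7 to 71.9 in NKT-1, 16.1 to 45.6 in NKT-2 and 23.3 to 33.6 in NKT-3 of the set. Cd4 made up most of this sum in NKT-1, at 67.6, 61.3 and 30.1 FPKM. In DN1eP it was at 5.27, 0, 1.27 and 0.888 FPKM. Dntt went the other way, at 0.228 FPKM or less in NKT-1 of the set. The sums therefore do not rank the groups in immature thymocytes. The part of such thymocytes was not tested either. NKT-2 library 6, which had the lowest value of its group for 40 members, also held 280.2 FPKM of B cell markers and 199 FPKM of erythroid markers. NKT-3 library 5 held 52.0 and 827 FPKM of them. The other NKT-2 and NKT-3 libraries of the set held at most 51.5 FPKM of B cell and 14.2 FPKM of erythroid markers. With NKT-2 library 6 and NKT-3 library 5 left out, 49, 43 and 3 members were called in DN1eP minus NKT-1, NKT-2 and NKT-3. The part of B or erythroid cells was not tested.

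**Figure D3:**
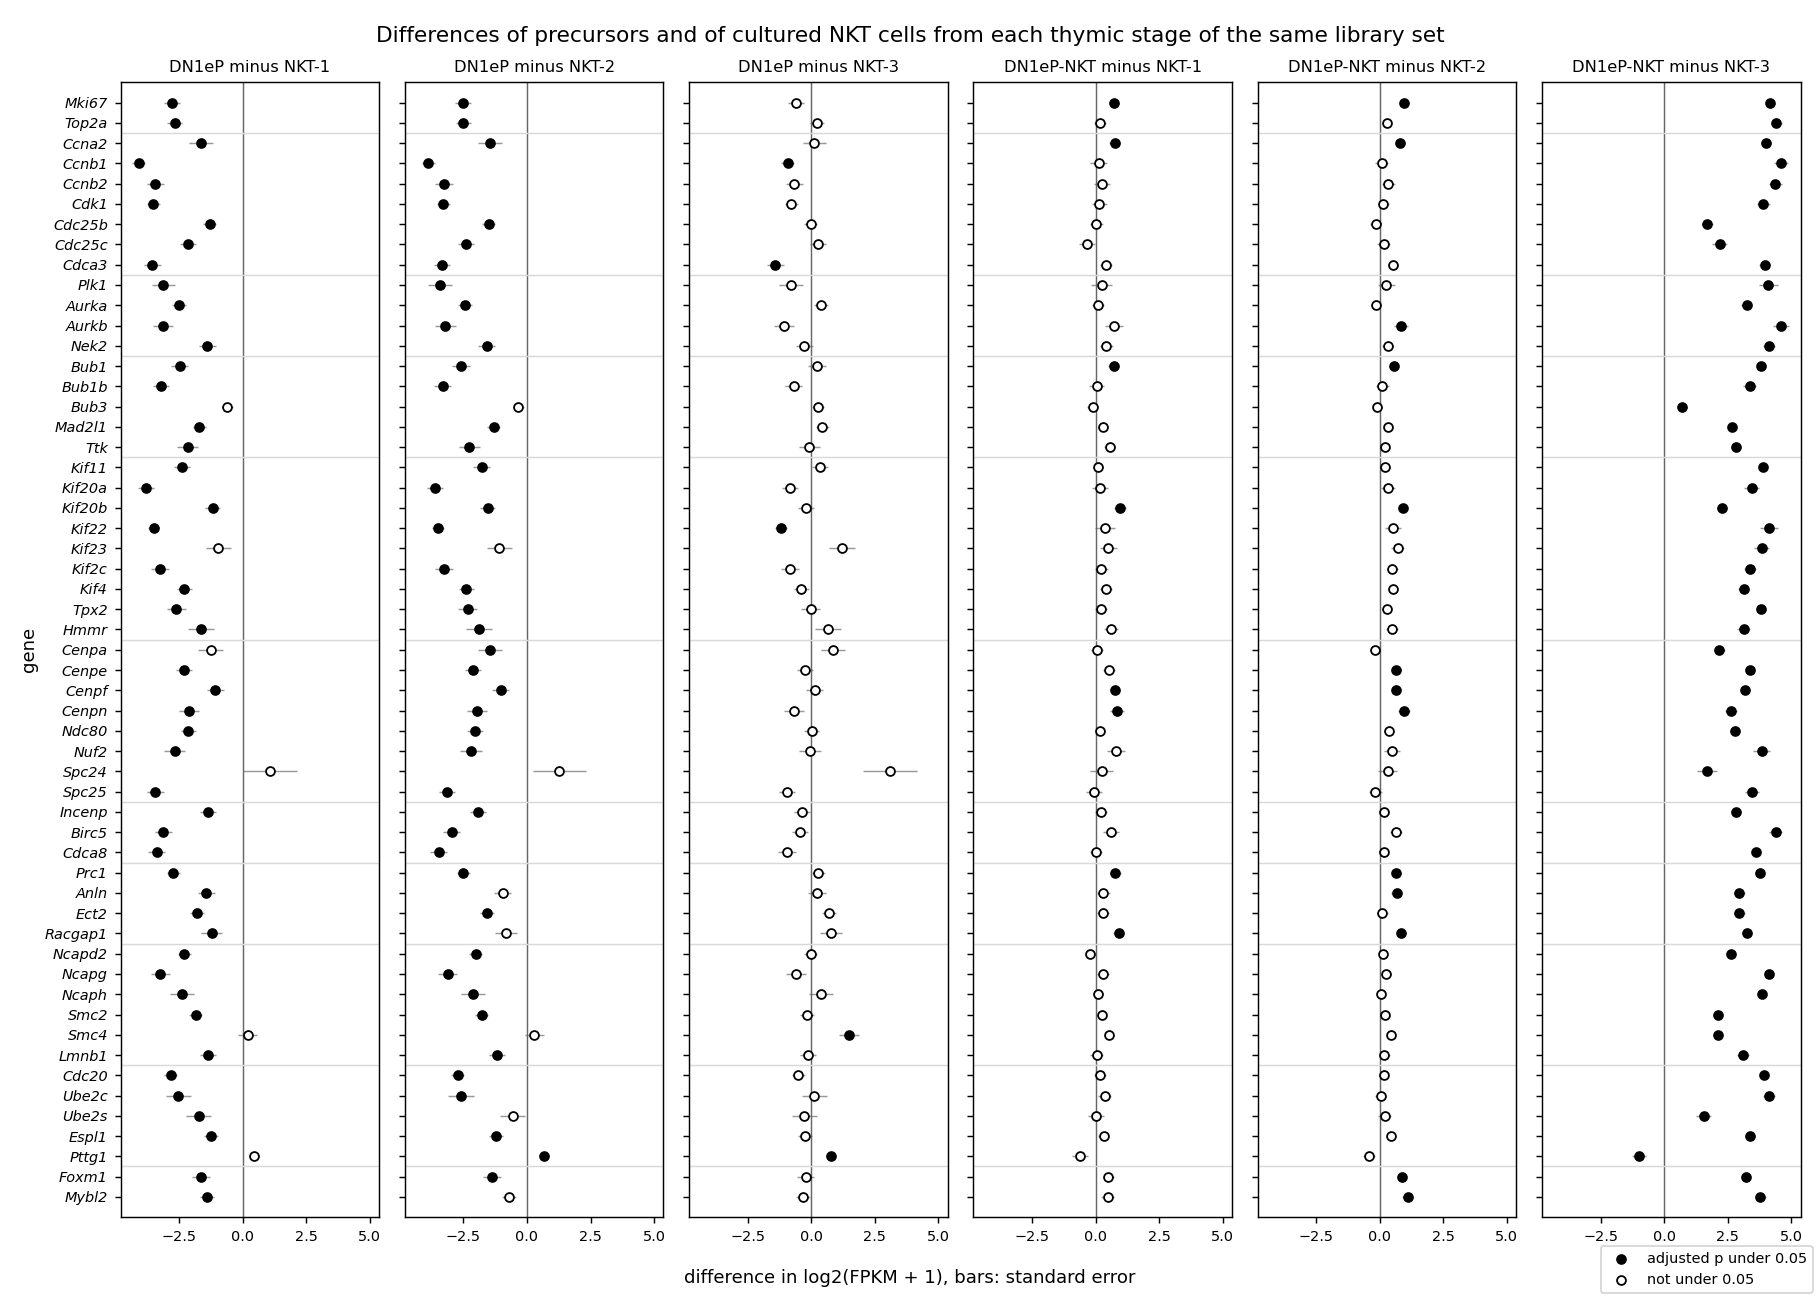
Difference on the log2(FPKM + 1) scale of every member, in rows ordered by role, for DN1eP minus each stage (lower-median set) and DN1eP-NKT minus each stage (higher-median set); bars are SE and filled points have an adjusted p under 0.05. DN1eP lies left of NKT-1 and NKT-2 for all members but Smc4, Pttg1 and Spc24. It lies near NKT-3 for most members, with Spc24 farthest from it. DN1eP-NKT lies near NKT-1 and NKT-2, and right of NKT-3 for 54 of 55 members.

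DN1eP-NKT cells held as much mitotic RNA as NKT-1 and NKT-2 cells or somewhat more, and far more than NKT-3 cells. In DN1eP-NKT minus NKT-3, 54 members were higher, where 19.8% of 11401 tested genes were, and 1 was lower, Pttg1 (-0.98 ± 0.27 SE), where 11.8% were; the median difference was 3.38, against 0.06 over all tested genes. Every DN1eP-NKT library lay apart from every NKT-3 library for 54 members, where this held for 38.5% of tested genes. The largest differences were those of the kinase gene Aurkb (4.60 ± 0.30 SE), Ccnb1 (4.60 ± 0.28 SE) and Top2a, which encodes topoisomerase II (4.42 ± 0.22 SE). The 54 members higher included Spc24 (1.69 ± 0.41 SE), Cdc25b (1.70 ± 0.22 SE), Ube2s (1.55 ± 0.29 SE) and Bub3 (0.69 ± 0.19 SE), which had the smallest differences. Against the mean of the 3 stages, 51 members were higher in DN1eP-NKT, where 17.4% of tested genes were, led by Aurkb (2.05), Mki67 (1.95) and Birc5 (1.88). Pttg1 was lower (-0.68), where 11.9% were, and Bub3, Ube2s and Spc24 were not called (0.16, 0.58 and 0.74).

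Against NKT-1 and NKT-2, the differences of DN1eP-NKT were small and reached few members. In DN1eP-NKT minus NKT-1, 8 members were higher and 0 lower, where 11.5% of tested genes were called higher and 9.69% lower, so the share of members called (8 of 55) was near that of all genes; the median was 0.29, against -0.04 over all tested genes. The 8 were Kif20b (0.96), Racgap1 (0.92), Cenpn (0.86), Cenpf (0.78), Prc1 (0.77), Ccna2 (0.76), Mki67 (0.74) and Bub1 (0.72). With NKT-1 library 1 left out, Kif20b was called higher and Pttg1 lower, and with library 2 left out Mki67, Cenpf and Prc1 were called higher and none lower, each time with 1 NKT-1 library remaining whose spread is taken from the other groups. In DN1eP-NKT minus NKT-2, 13 members were higher and 0 lower, where 15.2% of tested genes were higher and 10.9% lower, with a median of 0.31, against 0.02 over all tested genes. They were Mybl2 (1.10), Cenpn (0.96), Mki67 (0.94), Kif20b (0.91), Foxm1 (0.88), Racgap1 (0.84), Aurkb (0.82), Ccna2 (0.80), Anln (0.66), Prc1 (0.64), Cenpe (0.63), Cenpf (0.63) and Bub1 (0.55). Of these 13, Aurkb, Bub1, Anln and Cenpe lost their call when any 1 of 6, 5, 4 and 3 libraries was left out. At the other end of the 2 comparisons, with no call, stood Pttg1 (-0.62 and -0.43), Cdc25c (-0.34) and Ncapd2 (-0.21) against NKT-1, and Cenpa (-0.19) and Spc25 (-0.18) against NKT-2.

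DN1eP-NKT library 1 had the lowest value of the 4 for 40 of the 55 members, and its module mean of 5.07 lay within the 4.99 to 5.13 of the NKT-1 and NKT-2 libraries of its set. Library 1 was also deeper, at 19.6 times the shallowest library, against 1.12 to 2.28 times in libraries 2 to 4. Markers of stroma split the libraries in the same way. Thy1 apart, which T cells also express, the summed FPKM of 14 OP9 and fibroblast genes was 76.4 in library 1 and 267, 398 and 395 in libraries 2 to 4, against at most 1.92 in the thymic libraries of the set, and 11 of the 14 reached 1 FPKM in at least 1 DN1eP-NKT library. Cxcl12 stood at 53.5, 125, 179 and 191 FPKM, Col1a1 at 2.43, 28.6, 49.0 and 40.8 FPKM, and Lum at 0. Library 1 was part of the fit that made the calls. In it, all 8 members called higher against NKT-1 lay above every library of the stage, as did 11 of the 13 called higher against NKT-2, Aurkb and Prc1 being the exceptions. Without library 1, 12 and 17 members were called. The part of stromal RNA or of depth in these smaller differences was not tested.

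Of the thymic stages, NKT-3 was set apart and NKT-1 and NKT-2 were not. In NKT-3 minus NKT-2, with both library sets in 1 fit and library set as a term, 53 members were lower and 0 higher, where 20.7% of 11259 tested genes were lower and 12% higher; the median was -2.59, against -0.07 over all tested genes. The largest falls were those of the cyclin gene Ccnb1 (-3.79 ± 0.29 SE), Top2a (-3.47 ± 0.24 SE) and Ube2c, the ubiquitin-conjugating enzyme that starts chains for the anaphase-promoting complex (-3.44 ± 0.21 SE). Ube2s, its partner that extends the chains, and Pttg1 were not called (-0.86 ± 0.34 SE and 0.24 ± 0.19 SE). In NKT-3 minus NKT-1, 54 members were lower, where 29.7% of tested genes were, with Ccnb1 (-3.79 ± 0.31 SE), Top2a (-3.53 ± 0.26 SE) and Kif11 (-3.26 ± 0.25 SE) falling most, and Pttg1 (-0.01 ± 0.21 SE) was not called. In NKT-2 minus NKT-1, 0 members were called by limma, where 0.915% of tested genes were, and 0 had an unadjusted p under 0.05; the differences ran from Ube2s (-0.67 ± 0.36 SE), Mybl2 (-0.52 ± 0.34 SE) and Anln (-0.35 ± 0.23 SE) to Cdc25b (0.23 ± 0.15 SE), Nek2 (0.31 ± 0.40 SE) and Incenp (0.39 ± 0.26 SE).

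The fall into stage 3 was larger in the higher-median set. Fitted within each set, the median of NKT-3 minus NKT-2 was -2.93 in the higher-median and -2.13 in the lower-median set, the fall was larger in the higher-median set for 52 of 55 members, where the difference was more negative there for 45.2% of 10103 genes tested in both sets. Within the sets, 54 and 42 members were called lower, where 16.8% and 5.09% of the tested genes of each set were. For NKT-3 minus NKT-1 the medians were -3.07 and -2.16, the fall was larger for 51 members, where the difference was more negative for 33.5% of all genes. There, 54 and 52 were called lower, where 18.1% and 16.1% were. A test of the difference itself called 7 members for NKT-3 minus NKT-2, all with the larger fall in the higher-median set, where 0.329% of tested genes were called in that direction. They were Nek2 (-2.51 ± 0.38 SE, limma adjusted p = 0.0021), Mybl2 (-2.30 ± 0.34 SE, limma adjusted p = 0.0021), Espl1 (-1.95 ± 0.34 SE, limma adjusted p = 0.0077), Lmnb1 (-1.87 ± 0.41 SE, limma adjusted p = 0.048), Kif11 (-1.57 ± 0.33 SE, limma adjusted p = 0.039), Cdc20 (-1.56 ± 0.32 SE, limma adjusted p = 0.027) and Ube2c (-1.38 ± 0.30 SE, limma adjusted p = 0.042). For NKT-3 minus NKT-1 the same test called Nek2, Mybl2 and Espl1, where 0.355% of tested genes were, and for NKT-2 minus NKT-1 it called 0 of 55 members and 0 of all tested genes, with 457 genes at an unadjusted p under 0.05. Nek2, Mybl2, Espl1 and Lmnb1 stayed under 5 FPKM in all thymic libraries of the lower-median set. With a pseudocount of 0.1, 0 members were called in either of the first 2 tests.

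**Figure D4:**
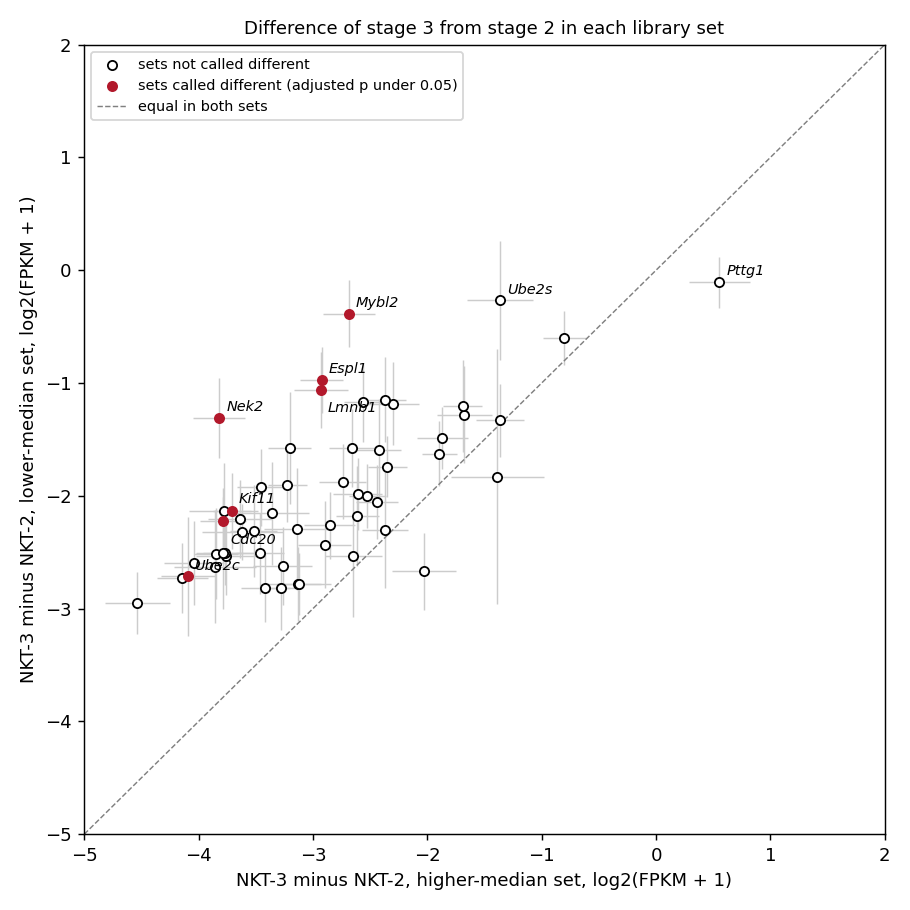
Difference of each member between stages on the log2(FPKM + 1) scale, in the higher-median set (x axis) and the lower-median set (y axis); the dashed line marks equal differences and red points the members whose difference was called unequal between sets. For NKT-3 minus NKT-2, 52 of 55 points lie above the line, at a larger fall in the higher-median set.

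DN1eP-NKT and their DN1eP precursors lay in different library sets, so their comparison rests on a set term estimated from the 18 thymic libraries, which is assumed to hold for both groups. For the members the gap between sets was not the same at each stage. Their mean log2(FPKM + 1) in the higher-median and lower-median sets was 5.06 and 4.40 in NKT-1, 5.02 and 4.28 in NKT-2, and 2.15 and 2.33 in NKT-3. A common term averages these gaps, so the sizes of the differences below are uncertain. With it, 51 members were higher in DN1eP-NKT and 1 lower, where 15.7% of 12119 tested genes were higher and 17.4% lower, and the median was 2.70, against -0.05 over all tested genes. Ccnb1 (4.55 ± 0.39 SE), Aurkb (4.55 ± 0.50 SE) and Kif22 (4.43 ± 0.40 SE) had the largest differences. Pttg1 was lower (-1.32 ± 0.29 SE), and Spc24 (-1.09 ± 0.88 SE), Smc4 (0.36 ± 0.34 SE) and Bub3 (0.37 ± 0.23 SE) were not called. Every DN1eP-NKT library lay apart from every DN1eP library in 53 members before any set term, where it did so in 56.1% of tested genes.

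Mki67, whose protein coats mitotic chromosomes and marks cycling cells, followed the block. Mki67 had 1.86, 1.84, 1.58 and 0.936 FPKM in DN1eP, against 20.5, 20.1 and 10.8 in NKT-1, 18, 16.0 and 8.35 in NKT-2 and 2.90, 3.18 and 2.53 in NKT-3 of the lower-median set. Mki67 was at 109.8, 99.6, 106 and 110.3 FPKM in DN1eP-NKT, against 54.0 and 74.3 in NKT-1, 52.2, 54.4, 46.4 and 68.7 in NKT-2 and 4.14, 4.79 and 6.15 in NKT-3 of the higher-median set. DN1eP lay below every thymic library of its set, NKT-3 included, and DN1eP-NKT above every thymic library of its own. The log2 difference was -2.79 ± 0.31 SE, limma adjusted p = 9.8e-06 for DN1eP minus NKT-1, and 0.94 ± 0.16 SE, limma adjusted p = 0.00035 for DN1eP-NKT minus NKT-2. Top2a, the topoisomerase that untangles sister chromosomes, had 9.72, 23.6, 18.6 and 21.3 FPKM in DN1eP, against 115, 94.0 and 148 in NKT-1, 140.3, 70.4 and 113 in NKT-2 and 16.5, 13.3 and 14.8 in NKT-3 of the lower-median set. Top2a was at 161, 215, 273 and 263 FPKM in DN1eP-NKT, against 164 and 237 in NKT-1, 148, 216, 175 and 204 in NKT-2 and 8.32, 7.79 and 13.0 in NKT-3 of the higher-median set. Here DN1eP overlapped NKT-3 and DN1eP-NKT overlapped NKT-1 and NKT-2 (0.18 and 0.28, not called).

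Of the 7 cyclin, CDK1 and CDC25 genes, all 7 were lower in DN1eP than in NKT-1 and in NKT-2, and all 7 were higher in DN1eP-NKT than in NKT-3. Ccnb1, the B-type cyclin that activates CDK1, had 4.63, 4.31, 4.76 and 2.92 FPKM in DN1eP, against 112, 73.3 and 76.5 in NKT-1, 88.3, 58.6 and 77.9 in NKT-2 and 8.26, 12.2 and 6.44 in NKT-3 of the lower-median set. Ccnb1 was at 37.7, 39.8, 41.8 and 33.1 FPKM in DN1eP-NKT, against 38.8 and 31.3 in NKT-1, 38.4, 31.2, 51.4 and 27.8 in NKT-2 and 0, 0.486 and 1.78 in NKT-3 of the higher-median set. DN1eP lay below NKT-3 in every library (-0.93 ± 0.25 SE, limma adjusted p = 0.025), while DN1eP-NKT lay among NKT-1 and NKT-2. Cdk1, the mitotic kinase itself, had 2.11, 3.77, 2.41 and 4.06 FPKM in DN1eP, against 56.0, 48.5 and 33.4 in NKT-1, 48.1, 31.1 and 37.3 in NKT-2 and 6.05, 6.75 and 5.00 in NKT-3 of the lower-median set. Cdk1 was at 29.2, 48.7, 40.2 and 40.1 FPKM in DN1eP-NKT, against 33.8 and 36.1 in NKT-1, 32.9, 35.9, 36.5 and 36.0 in NKT-2 and 0.628, 1.80 and 3.11 in NKT-3 of the higher-median set. Cdk1 thus gave 29.2 FPKM or more in DN1eP-NKT and 4.06 FPKM or less in DN1eP, which lay in different library sets. Each group was separate from NKT-3 of its own set in every library (DN1eP minus NKT-3 -0.79 ± 0.26 SE, limma adjusted p = 0.053).

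Cdc25b encodes a phosphatase that removes the inhibitory phosphates of CDK1. Cdc25b had 9.92, 14.5, 20.6 and 12.2 FPKM in DN1eP, against 42.0, 36.3 and 28.6 in NKT-1, 56.0, 34.4 and 35.9 in NKT-2 and 14.5, 15.2 and 12.4 in NKT-3 of the lower-median set. Cdc25b was at 42.6, 77.5, 91.4 and 86.5 FPKM in DN1eP-NKT, against 63.3 and 78.5 in NKT-1, 72.5, 89.7, 72.1 and 89.8 in NKT-2 and 24.5, 20.3 and 19.4 in NKT-3 of the higher-median set. DN1eP was lower than NKT-1 (-1.29 ± 0.26 SE, limma adjusted p = 0.0017) and level with NKT-3 (-0.02). Ccna2, the A-type cyclin of S phase and early mitosis, had 0.912, 3.49, 3.86 and 5.32 FPKM in DN1eP, against 18.2, 16.2 and 4.93 in NKT-1, 16.2, 10.5 and 5.81 in NKT-2 and 2.45, 3.96 and 1.97 in NKT-3 of the lower-median set. Ccna2 was at 76.0, 108, 98.4 and 101 FPKM in DN1eP-NKT, against 58.8 and 52.8 in NKT-1, 57.1, 49.2, 69.0 and 43.9 in NKT-2 and 3.84, 5.52 and 5.75 in NKT-3 of the higher-median set. DN1eP-NKT lay above every NKT-1 and NKT-2 library (0.76 ± 0.21 SE, limma adjusted p = 0.017, and 0.80 ± 0.17 SE, limma adjusted p = 0.0024), whereas DN1eP library 4 overlapped NKT-1 library 5. Its lower call in DN1eP minus NKT-1 (-1.63 ± 0.47 SE) was lost without NKT-1 library 3 or 4. The lower call of Ccna2 in DN1eP minus NKT-2 (-1.45) was lost when any 1 of 5 libraries was left out. The gene's interval overlaps that of Exosc9.

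The mitotic kinases Plk1, Aurka, Aurkb and Nek2 were each lower in DN1eP than in NKT-1 and NKT-2. Plk1, the polo kinase of mitotic entry and spindle assembly, had 0.0974, 0.455, 3.20 and 0 FPKM in DN1eP, against 10.5, 9.24 and 22.1 in NKT-1, 20.3, 13.1 and 16.4 in NKT-2 and 3.53, 0.795 and 1.71 in NKT-3 of the lower-median set. Plk1 was at 35.1, 51.9, 59.5 and 64.3 FPKM in DN1eP-NKT, against 36.4 and 51.2 in NKT-1, 41.9, 49.4, 39.6 and 42.2 in NKT-2 and 0.835, 1.20 and 6.00 in NKT-3 of the higher-median set. DN1eP library 3 held nearly all of its group's signal, and in both sets NKT-3 was low as well. Aurkb, the kinase of the chromosomal passenger complex, had 3.97, 0, 1.57 and 1.46 FPKM in DN1eP, against 18.3, 20.3 and 21.2 in NKT-1, 25.4, 18 and 20.0 in NKT-2 and 5.79, 3.44 and 3.13 in NKT-3 of the lower-median set. Aurkb was at 37.8, 54.0, 82.2 and 75.5 FPKM in DN1eP-NKT, against 30.1 and 42.3 in NKT-1, 29.1, 42.8, 29.9 and 33.0 in NKT-2 and 0.476, 1.95 and 2.57 in NKT-3 of the higher-median set. DN1eP-NKT libraries 2 to 4 lay above all thymic libraries and library 1 among them, and the call against NKT-2 (0.82 ± 0.28 SE, limma adjusted p = 0.04) was lost when any 1 of 6 libraries was left out. Aurka, the centrosome kinase, was not called in DN1eP-NKT minus NKT-2 (-0.17 ± 0.20 SE), and Nek2, a kinase of centrosome separation, had at most 0.686 FPKM in DN1eP, against 1.18 to 3.91 FPKM in NKT-1 and NKT-2 of the set.

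Among the 5 spindle checkpoint genes, Bub1, Bub1b, Mad2l1 and Ttk were lower in DN1eP than in NKT-1 and NKT-2, and Bub3 was not called in either. Bub1, a checkpoint kinase at the kinetochore, had 1.32, 0.661, 1.33 and 1.24 FPKM in DN1eP, against 7.71, 9.98 and 16.5 in NKT-1, 15.9, 7.51 and 13.3 in NKT-2 and 0.669, 1.79 and 0.254 in NKT-3 of the lower-median set. Bub1 was at 18.9, 20.5, 27.8 and 21.2 FPKM in DN1eP-NKT, against 13.4 and 12.5 in NKT-1, 13.4, 14.3, 15.8 and 15.2 in NKT-2 and 0.404, 0.414 and 1.09 in NKT-3 of the higher-median set. DN1eP-NKT lay above every thymic library of its set (0.72 ± 0.21 SE, limma adjusted p = 0.024 against NKT-1). Bub3, which carries BUB1 to kinetochores, had 93.4, 81.1, 129 and 80.4 FPKM in DN1eP, against 145, 136 and 149.9 in NKT-1, 159, 90.5 and 118 in NKT-2 and 92.1, 75.9 and 68.7 in NKT-3 of the lower-median set. Bub3 was at 52.1, 77.9, 93.1 and 94.9 FPKM in DN1eP-NKT, against 78.8 and 87.9 in NKT-1, 77.5, 87.1, 75.6 and 95.0 in NKT-2 and 45.5, 44.6 and 52.7 in NKT-3 of the higher-median set. Bub3 stood at 44.6 FPKM or more in all 26 libraries, DN1eP libraries 1 and 3 lay within the range of NKT-2, and the fall into stage 3 was small (NKT-3 minus NKT-1 -0.84 ± 0.14 SE, limma adjusted p = 5.7e-05). Mad2l1, the checkpoint protein that holds CDC20, was at 25.9, 19.4, 20.2 and 21.6 FPKM in DN1eP, against 19.0, 12.0 and 17.2 FPKM in NKT-3, one of 12 members whose DN1eP and NKT-3 libraries did not overlap, where those of 21.2% of tested genes did not (0.43 ± 0.25 SE, limma adjusted p = 0.27).

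Of the 9 kinesins and spindle microtubule factors, 8 were lower in DN1eP than in NKT-1, the exception being the midzone kinesin gene Kif23. Kif11, the motor that pushes the spindle poles apart, had 1.60, 3.37, 5.51 and 2.69 FPKM in DN1eP, against 21.7, 20.2 and 19.6 in NKT-1, 17.1, 9.52 and 13.6 in NKT-2 and 3.44, 1.77 and 1.67 in NKT-3 of the lower-median set. Kif11 was at 48.2, 50.5, 46.2 and 43.3 FPKM in DN1eP-NKT, against 49.6 and 38.6 in NKT-1, 50.2, 39.2, 46.0 and 31.6 in NKT-2 and 2.06, 2.58 and 2.06 in NKT-3 of the higher-median set. DN1eP-NKT lay among NKT-1 and NKT-2 (0.10 and 0.19, not called) and far above NKT-3 (3.90 ± 0.17 SE, limma adjusted p = 1.2e-09). Kif23 had 1.13, 6.78, 11.9 and 13.1 FPKM in DN1eP, against 9.99, 19.8 and 12.0 FPKM in NKT-1, so that library 1 stood far below the others and 2 DN1eP libraries lay among NKT-1 (-0.96 ± 0.51 SE, limma adjusted p = 0.17). Hmmr, a spindle pole factor, showed the same split, with 0.848, 6.13, 11.1 and 5.85 FPKM in DN1eP, against 13.2, 15.9 and 22.8 FPKM in NKT-1. Its call (-1.64 ± 0.51 SE, limma adjusted p = 0.026) was lost when any NKT-1 library was left out. Kif20b, a kinesin of late cytokinesis, was the member with the largest difference between DN1eP-NKT and NKT-1 (0.96 ± 0.24 SE, limma adjusted p = 0.0091), at 16.9, 16.8, 13.7 and 9.65 FPKM in DN1eP-NKT, against 7.28 and 6.16 FPKM in NKT-1.

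The 8 centromere and kinetochore genes held both members of the block and the largest departure from it. Cenpa, the histone H3 variant of centromeres, had 4.81, 35.3, 17.0 and 26.3 FPKM in DN1eP, against 56.7, 42.8 and 30.9 in NKT-1, 60.4, 46.2 and 39.4 in NKT-2 and 11.0, 7.05 and 9.12 in NKT-3 of the lower-median set. Cenpa was at 55.6, 83.2, 85.0 and 88.6 FPKM in DN1eP-NKT, against 67.6 and 81.8 in NKT-1, 78.5, 87.9, 97.4 and 88.6 in NKT-2 and 22.8, 13.3 and 13.9 in NKT-3 of the higher-median set. Library 1 of each cultured or precursor group was the low one. Its lower call in DN1eP minus NKT-2 was lost when any 1 of 10 libraries was left out. Without DN1eP library 1 the difference in DN1eP minus NKT-2 was -0.91 on the log2 scale, against -1.45 with it, and that in DN1eP-NKT minus DN1eP 0.75, against 1.30 with it. Ndc80, the microtubule-binding subunit of the outer kinetochore, had 5.02, 5.92, 13.7 and 5.91 FPKM in DN1eP, against 33.7, 33.5 and 36.6 in NKT-1, 46.2, 21.3 and 34.0 in NKT-2 and 6.95, 7.68 and 6.42 in NKT-3 of the lower-median set. Ndc80 was at 22.7, 30.8, 34.8 and 28.0 FPKM in DN1eP-NKT, against 23.5 and 27.0 in NKT-1, 23.3, 20.1, 23.3 and 23.1 in NKT-2 and 2.93, 4.63 and 2.63 in NKT-3 of the higher-median set. Its partners Nuf2 and Spc25 moved with it in DN1eP minus NKT-1 (-2.68 and -3.44, against -2.14 for Ndc80). Spc24, the fourth subunit of the same complex, did not. Spc24 had 1.91, 96.0, 85.2 and 66.6 FPKM in DN1eP, against 15.5, 12.8 and 20.0 in NKT-1, 16.2, 17.0 and 9.41 in NKT-2 and 3.78, 2.77 and 2.98 in NKT-3 of the lower-median set. Spc24 was at 18.9, 38.1, 57.2 and 46.8 FPKM in DN1eP-NKT, against 24.1 and 40.9 in NKT-1, 21.0, 43.0, 20.5 and 44.2 in NKT-2 and 12.6, 6.48 and 15.6 in NKT-3 of the higher-median set. DN1eP libraries 2 to 4 lay above every thymic library of both sets and library 1 below every one of them, so the comparisons with DN1eP gave wide errors and no call (DN1eP minus NKT-3 3.11 ± 1.06 SE, limma adjusted p = 0.079). The kinetochore genes Cenpe, Cenpf and Cenpn had at most 3.28 FPKM in any DN1eP library.

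Birc5, Cdca8 and Incenp, which with Aurkb form the chromosomal passenger complex, were all lower in DN1eP than in NKT-1 and NKT-2. Birc5, which encodes survivin, had 15.4, 38.8, 13.0 and 15.8 FPKM in DN1eP, against 204, 190.0 and 129 in NKT-1, 206, 117 and 151 in NKT-2 and 31.7, 21.6 and 24.7 in NKT-3 of the lower-median set. Birc5 was at 99.0, 187, 235 and 232 FPKM in DN1eP-NKT, against 86.6 and 155 in NKT-1, 98.7, 123, 112 and 127 in NKT-2 and 8.69, 6.36 and 7.80 in NKT-3 of the higher-median set. DN1eP library 2 lay above the other 3 and above NKT-3, and DN1eP-NKT libraries 2 to 4 above all thymic libraries of their set, without a call against NKT-2 (0.63 ± 0.25 SE, limma adjusted p = 0.077). Incenp, the scaffold of the complex, had at least 38.1 FPKM in DN1eP-NKT and at most 1.24 FPKM in DN1eP. It was at least 30.2 FPKM in NKT-2 of the higher-median set and at most 7.16 FPKM in NKT-2 of the other, so a gap of this kind was also present between library sets within a stage (2.34 ± 0.36 SE with the set term).

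Of the 4 midzone and cytokinesis genes, Prc1, which bundles the microtubules of the spindle midzone, had 6.09, 6.86, 8.03 and 6.50 FPKM in DN1eP, against 47.6, 57.0 and 48.8 in NKT-1, 60.2, 28.0 and 49.5 in NKT-2 and 6.73, 5.96 and 4.14 in NKT-3 of the lower-median set. Prc1 was at 44.2, 58.5, 67.2 and 69.3 FPKM in DN1eP-NKT, against 30.5 and 38.3 in NKT-1, 32.2, 48.1, 35.2 and 36.3 in NKT-2 and 2.92, 3.31 and 4.11 in NKT-3 of the higher-median set. DN1eP overlapped NKT-3 and DN1eP-NKT lay above both NKT-1 libraries (0.77 ± 0.21 SE, limma adjusted p = 0.018). Racgap1, the GTPase-activating partner of KIF23 in the centralspindlin complex, was at 57.9, 81.7, 77.0 and 82.8 FPKM in DN1eP-NKT, against 38.3 and 39.3 FPKM in NKT-1 (0.92 ± 0.22 SE, limma adjusted p = 0.0079). In DN1eP it was called lower than in NKT-1 (-1.22 ± 0.43 SE, limma adjusted p = 0.041), a call lost when any of 7 libraries was left out, and not called against NKT-2 (-0.82 ± 0.43 SE, limma adjusted p = 0.18). Anln, the actin and septin scaffold of the contractile ring, was at 8.45 FPKM or more in DN1eP-NKT and 1.40 FPKM or less in DN1eP. These groups lay in different library sets. NKT-1 held 6.72 and 9.11 FPKM of it in the higher-median set and 3.63, 3.80 and 3.19 FPKM in the lower-median set. A gap between sets was thus also present within a stage. Ect2, the activator of RhoA at the cell equator, was at 3.37, 2.41, 2.42 and 4.21 FPKM in DN1eP, against 1.60, 1.59 and 1.32 FPKM in NKT-3, without overlap and without a call (0.69 ± 0.28 SE, limma adjusted p = 0.1).

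Condensin packs mitotic chromosomes, and its subunit genes Ncapd2, Ncapg, Ncaph and Smc2 followed the block while Smc4 did not. Smc4 had 12.6, 50.5, 50.5 and 42.0 FPKM in DN1eP, against 32.1, 33.6 and 24.4 in NKT-1, 30.5, 28.2 and 25.3 in NKT-2 and 13.2, 14.7 and 7.94 in NKT-3 of the lower-median set. Smc4 was at 102, 102, 86.8 and 89.2 FPKM in DN1eP-NKT, against 72.8 and 57.3 in NKT-1, 74.2, 66.1, 80.9 and 61.7 in NKT-2 and 16.6, 25.6 and 22.0 in NKT-3 of the higher-median set. DN1eP libraries 2 to 4 lay above every thymic library of their set and library 1 below NKT-1 and NKT-2. Smc2, its partner ATPase, was at 8.74, 9.43, 9.30 and 6.22 FPKM in DN1eP, against 31.4, 28.4 and 39.1 FPKM in NKT-1 (-1.85 ± 0.27 SE, limma adjusted p = 0.00014), so the paired subunits differed in their order between these groups. The Smc4 interval overlaps those of Mir15b and Mir16-2. Lmnb1, the nuclear lamina gene, depended strongly on the library set, with 92.4, 132, 101 and 95.9 FPKM in DN1eP-NKT and 118 and 87.0 FPKM in NKT-1 of the higher-median set, against 4.88, 2.22 and 2.50 FPKM in NKT-1 of the lower-median set.

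Among the genes of the anaphase-promoting complex and separase, Cdc20, Ube2c and Espl1 followed the block, Ube2s did so in part, and Pttg1 ran the other way. Cdc20, the activator of the complex, had 0.493, 0.576, 0.579 and 0.975 FPKM in DN1eP, against 11.5, 12.7 and 8.45 in NKT-1, 13.0, 7.95 and 9.34 in NKT-2 and 1.72, 1.26 and 1.07 in NKT-3 of the lower-median set. Cdc20 was at 44.0, 67.1, 66.6 and 74.6 FPKM in DN1eP-NKT, against 49.5 and 59.7 in NKT-1, 59.0, 54.5, 50.1 and 59.0 in NKT-2 and 2.11, 4.12 and 3.32 in NKT-3 of the higher-median set. Every DN1eP library was below 1 FPKM and below every NKT-3 library, though without a call (-0.51 ± 0.27 SE, limma adjusted p = 0.22), and its interval overlaps that of Elovl1. Ube2c had 2.47, 15.0, 25.6 and 11.1 FPKM in DN1eP, against 69.9, 66.2 and 62.2 in NKT-1, 88.9, 60.4 and 61.1 in NKT-2 and 11.8, 8.56 and 8.86 in NKT-3 of the lower-median set. Ube2c was at 98.3, 149.9, 194 and 186 FPKM in DN1eP-NKT, against 91.0 and 154 in NKT-1, 128, 142, 139.8 and 185 in NKT-2 and 8.61, 7.06 and 7.43 in NKT-3 of the higher-median set. DN1eP library 1 lay below NKT-3 and libraries 2 and 3 above it; without library 1, DN1eP minus the mean of the stages was -1.09 on the log2 scale, against -1.67 with it. Espl1, which encodes separase, was at most 0.142 FPKM in DN1eP, against 1.19 to 2.14 FPKM in NKT-1 of the set.

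Pttg1 encodes securin, the inhibitor and chaperone of separase. Pttg1 had 194, 238, 235 and 161 FPKM in DN1eP, against 155, 194 and 112 in NKT-1, 141, 125 and 119 in NKT-2 and 114, 125 and 118 in NKT-3 of the lower-median set. Pttg1 was at 23.6, 28.8, 39.3 and 38.3 FPKM in DN1eP-NKT, against 34.4 and 70.7 in NKT-1, 30.2, 56.7, 38.5 and 52.5 in NKT-2 and 74.8, 51.8 and 67.2 in NKT-3 of the higher-median set. DN1eP held the highest values, above every NKT-2 and NKT-3 library of its set (0.67 ± 0.21 SE, limma adjusted p = 0.029, and 0.78 ± 0.21 SE, limma adjusted p = 0.023), though both calls were lost in some fits with 1 library left out. DN1eP-NKT lay below every NKT-3 library of its set (-0.98 ± 0.27 SE, limma adjusted p = 0.012), a call that fell to a difference of -0.87 with limma adjusted p = 0.056 without NKT-3 library 1. Pttg1 was the only one of the 55 members not called lower in NKT-3 against either other stage, with both library sets in the fit. Ube2s, at 79.8 to 377 FPKM in the higher-median set and 1.17 to 19.7 FPKM in the lower-median set, had a call in DN1eP-NKT minus DN1eP (1.39 ± 0.51 SE, limma adjusted p = 0.038) that was lost when any 1 of 10 libraries was left out.

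Foxm1 and Mybl2 encode transcription factors that drive late cell cycle genes. Foxm1 had 0.398, 0, 1.98 and 0.863 FPKM in DN1eP, against 4.01, 5.90 and 3.19 in NKT-1, 4.23, 2.58 and 3.33 in NKT-2 and 1.25, 1.11 and 0.570 in NKT-3 of the lower-median set. Foxm1 was at 24.2, 29.0, 27.2 and 28.7 FPKM in DN1eP-NKT, against 18.2 and 19.6 in NKT-1, 18.7, 15.0, 11.9 and 12.7 in NKT-2 and 1.40, 2.30 and 2.34 in NKT-3 of the higher-median set. DN1eP-NKT lay above every thymic library of its set, with a call against NKT-2 (0.88 ± 0.17 SE, limma adjusted p = 0.0011) and none against NKT-1 (0.51 ± 0.21 SE, limma adjusted p = 0.1). Mybl2 had 0.0139, 0, 0 and 0.147 FPKM in DN1eP, against 1.56, 2.51 and 1.25 in NKT-1, 0.958, 0.860 and 0.350 in NKT-2 and 0.300, 0.592 and 0.0678 in NKT-3 of the lower-median set. Mybl2 was at 11.0, 17.0, 20.6 and 19.6 FPKM in DN1eP-NKT, against 10.3 and 13.1 in NKT-1, 7.11, 9.17, 5.48 and 7.58 in NKT-2 and 0.239, 0.392 and 0.214 in NKT-3 of the higher-median set. Mybl2 was near 0 in DN1eP, and of all members it had the largest difference between DN1eP-NKT and NKT-2 (1.10 ± 0.21 SE, limma adjusted p = 0.00098). Against NKT-1 the groups overlapped (0.48 ± 0.25 SE, limma adjusted p = 0.22).

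**Figure D5:**
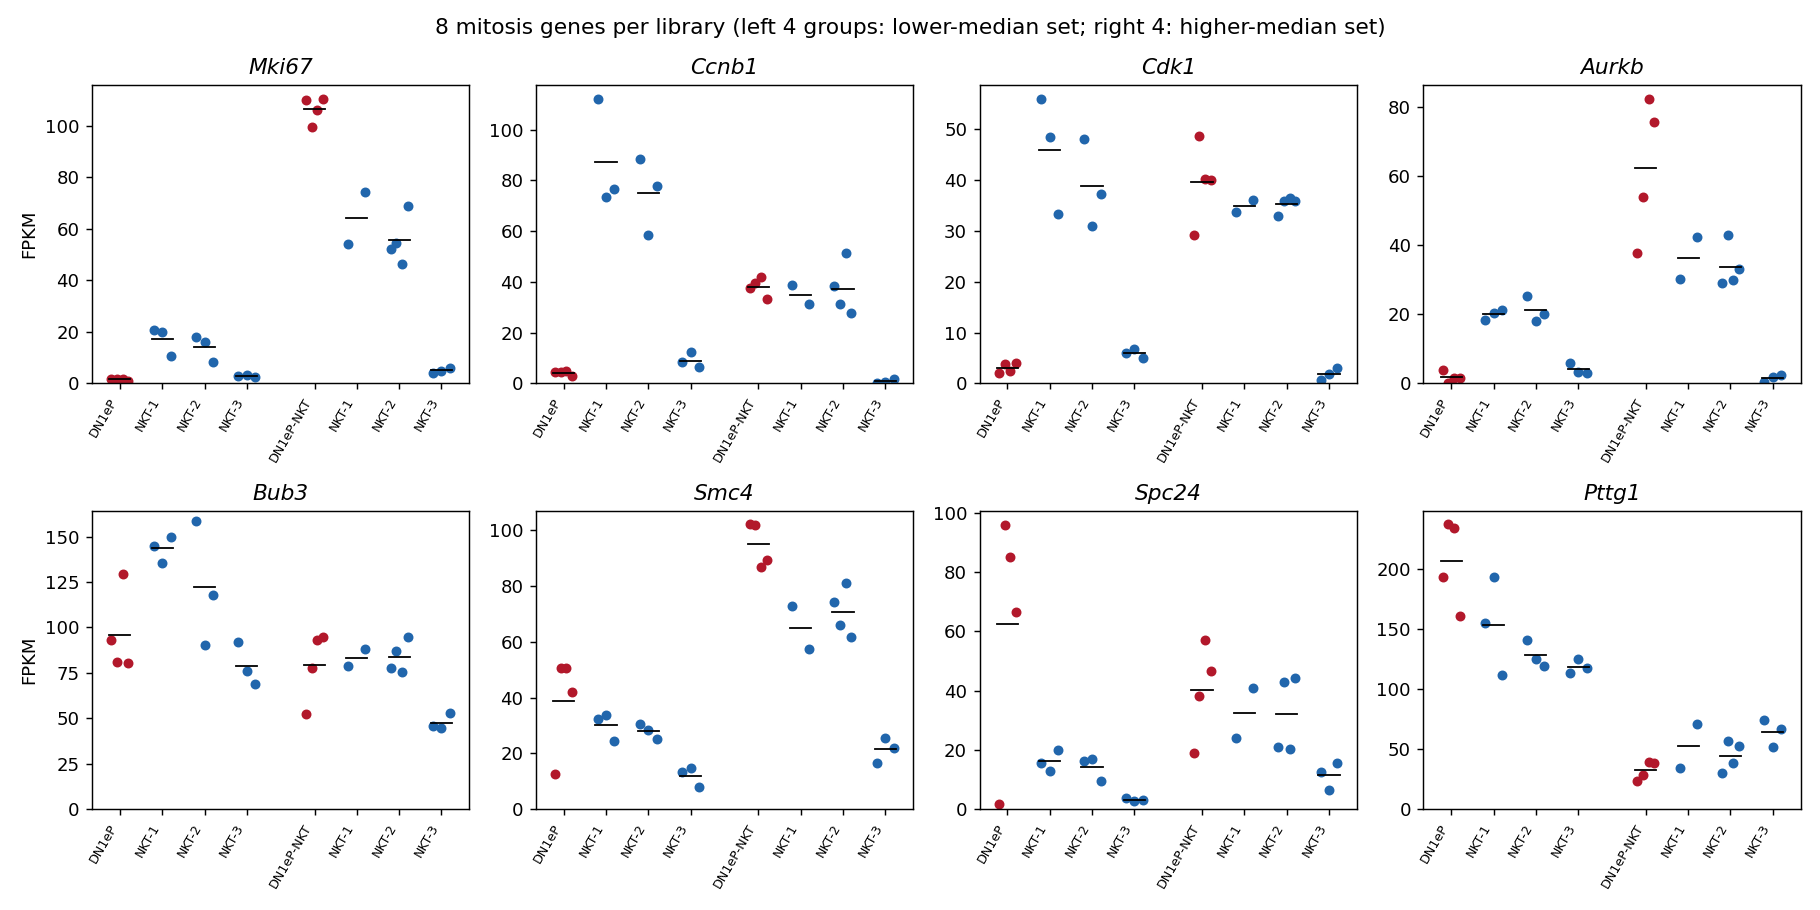
FPKM of 8 members in every library on linear axes that start at 0, by group within each library set; red points are DN1eP and DN1eP-NKT libraries, blue points thymic NKT libraries, and lines group means. The panels of Mki67, Ccnb1, Cdk1 and Aurkb show low DN1eP and NKT-3 and high DN1eP-NKT, NKT-1 and NKT-2, whereas Pttg1 is high in DN1eP and Spc24 and Smc4 have 1 low and 3 high DN1eP libraries.

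Other genes of the cell cycle were counted in lists beside the members. Over all tested genes, 16.3%, 8.94% and 2.57% were lower and 13.6%, 15.6% and 12.9% higher in DN1eP than in NKT-1, NKT-2 and NKT-3. Likewise, 11.5%, 15.2% and 19.8% were higher and 9.69%, 10.9% and 11.8% lower in DN1eP-NKT. Of 59 further mitosis genes in the files, 56 were tested in the lower-median set, and 45 were lower in DN1eP than in NKT-1, 41 lower than in NKT-2 and 3 lower than in NKT-3, with 0, 0 and 5 higher. The largest difference was that of Pbk, a mitotic kinase (-3.90 ± 0.39 SE), followed by Nusap1, a spindle-associated protein (-3.51 ± 0.24 SE). In DN1eP-NKT, 10 were higher than in NKT-1, 19 than in NKT-2 and 57 than in NKT-3, and 0 were lower. Psrc1, a spindle factor and known p53 target, stood at 22.0, 16.5, 14.2 and 13.9 FPKM in DN1eP-NKT, against 0.970 and 1.05 FPKM in NKT-1 (3.11 ± 0.28 SE, limma adjusted p = 7.8e-07). In NKT-3, 57 were lower than in NKT-2 and 57 lower than in NKT-1, and 0 were higher.

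The list of 50 genes of DNA replication and S phase was counted in the same way. In DN1eP, 41 were lower than in NKT-1, 31 lower than in NKT-2 and 2 lower than in NKT-3, with 0, 0 and 5 higher. In DN1eP-NKT, 0 were higher and 3 lower than in NKT-1, 6 higher and 1 lower than in NKT-2, and 48 higher than in NKT-3. The counts against NKT-1 and NKT-2 were no larger a share than that of all genes. Rrm2, a subunit of ribonucleotide reductase, was at 23.1, 27.2, 24.1 and 21.3 FPKM in DN1eP, against 363, 267 and 320.4 FPKM in NKT-1 (-3.67 ± 0.23 SE, limma adjusted p = 1.8e-08). In NKT-2 minus NKT-1, 1 of the 50 was called, the replicative helicase gene Mcm2 (-0.51 ± 0.12 SE, limma adjusted p = 0.046), and the median difference of the list was -0.42, against -0.02 for the 55 members and -0.13 over all tested genes. In NKT-3, 45 were lower than in NKT-2 and 49 lower than in NKT-1, where 20.7% and 29.7% of all tested genes were.

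A list of 17 genes of the anaphase-promoting complex held core subunits, inhibitors and checkpoint factors, the activator gene Fzr1 and the ubiquitin-conjugating enzyme gene Ube2d1. Of these, 7 were lower in DN1eP than in NKT-1, 3 lower than in NKT-2, and 7 were higher in DN1eP-NKT than in NKT-3. Fbxo5, which encodes the inhibitor EMI1 and is in both this list and that of further mitosis genes, had the largest difference in DN1eP minus NKT-1 (-3.32 ± 0.29 SE). D cyclins, CDK inhibitors and quiescence genes went both ways, with 5 higher and 5 lower of 21 tested in DN1eP minus NKT-1, where 13.6% and 16.3% of all genes were, and 6 higher and 3 lower of 24 in DN1eP-NKT minus NKT-1, where 11.5% and 9.69% were. These counts of a few genes are a description only. Cdkn1a, which encodes the CDK inhibitor p21, was at 77.6, 59.6, 71.5 and 69.4 FPKM in DN1eP-NKT, against 0.509 and 0.472 FPKM in NKT-1 (5.56 ± 0.42 SE, limma adjusted p = 1.6e-07). Cdkn2a, the locus of p16 and p19ARF, was at 26.6, 47.2, 52.0 and 46.2 FPKM in DN1eP-NKT, against 4.55 and 4.45 FPKM in NKT-1. Library 1, the deepest and the one with the least stromal RNA, held the highest Cdkn1a and the lowest Cdkn2a of the 4. Btg2, an antiproliferative gene, was at 224, 320.2, 393 and 316 FPKM in DN1eP, against 58.7, 71.8 and 64.2 FPKM in NKT-1 (2.23 ± 0.21 SE, limma adjusted p = 2.5e-06), and at 192, 162 and 156 FPKM in NKT-3.

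The members were alike across libraries. The Pearson correlation of each member with the mean of the others, over 26 libraries centred within each library set, had a median of 0.953, with 45 members above 0.9 and 3 below 0.7, namely Smc4 (0.68), Spc24 (0.34) and Pttg1 (-0.47). The libraries share depth and set, so this is a description only. The genes outside the members and lists most like the mean of the 55, by the same correlation, were 2810417H13Rik (0.991), Shcbp1 (0.975), Rad51ap1 (0.974), Asf1b (0.970) and 1190002F15Rik (0.967). Shcbp1 was at 0.783, 3.78, 2.37 and 3.19 FPKM in DN1eP, against 37.1, 32.4 and 35.3 FPKM in NKT-1, and at 22.9, 28.0, 24.8 and 24.8 FPKM in DN1eP-NKT, against 0.433, 1.07 and 1.56 FPKM in NKT-3.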

How the data were processed

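The deposited values were FPKM per gene for 26 libraries, made by the authors with TopHat2 2.0.6 and Cufflinks 2.1.1 on mm9, per the submitters' processing notes. The labels name 2 library kits without saying which library had which. Rows of one symbol were summed, and 86 symbols that some file lacked and 13 whose estimate had failed were not used. Fragment counts were not used here, so relative depth was read from the deposited intervals. No source used here says whether counting used strand, and 7 members overlap other genes.

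Each fit took the genes that reached 1 FPKM in 3 or more of its libraries, on the log2(FPKM + 1) scale and without rescaling. Tests used limma 3.58.1 under R 4.3.3, with a trend, robust eBayes and Benjamini-Hochberg adjustment over all tested genes at 0.05. DN1eP was compared within the lower-median set, DN1eP-NKT within the higher-median set, and stages over 18 thymic libraries with library set as a term. Figures and motif counts used Python 3.11.15 and matplotlib 3.10.9. The fits were also run on simulated data with independent errors per gene and no difference in depth. Their behaviour under unequal depth was therefore not tested. Members, lists, library sets, the rule for naming genes and the markers were chosen with earlier results of these data known. That rule gives every library for 19 members and names the 3 largest and 3 smallest differences and the exceptions in each comparison. Alternatives were another pseudocount, filters, scalings, set terms, a replicate block and leaving out libraries.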

Additional observations from a re-analysis of the deposited data

Results flagged for a closer look

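A single library stood far from the others of its group in 12 of 165 groups of member and library set, where chance flags about 1 in 20 groups. In DN1eP these were Plk1 at 3.20 FPKM in library 3 (0 to 0.455 in the others), Bub1 at 0.661 in library 2 (1.24 to 1.33), Ndc80 at 13.7 in library 3 (5.02 to 5.92), Birc5 at 38.8 in library 2 (13.0 to 15.8), Mybl2 at 0.147 in library 4 (0 to 0.0139), Nek2 at 0.686 in library 4 (0 to 0.0163) and Cenpf at 0.297 in library 1 (1.68 to 1.89). In DN1eP-NKT, Cenpa was at 55.6 FPKM in library 1 (83.2 to 88.6 in the others), Smc2 at 45.0 in library 1 (54.1 to 54.8) and Kif4 at 11.3 in library 4 (16.2 to 16.6). In NKT-2 of the higher-median set, Cdk1 was at 32.9 FPKM in library 1 (35.9 to 36.5) and Ndc80 at 20.1 in library 2 (23.1 to 23.3).

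The fall into stage 3 differed between the library sets, by a test of the difference itself. For NKT-3 minus NKT-2 (higher-median minus lower-median set, log2 scale) the differences were -2.51 for Nek2, -2.30 for Mybl2, -1.95 for Espl1, -1.87 for Lmnb1, -1.57 for Kif11, -1.56 for Cdc20 and -1.38 for Ube2c. For NKT-3 minus NKT-1 they were -2.59 for Nek2, -2.24 for Mybl2 and -2.09 for Espl1. In NKT-3 minus NKT-2 the calls of Lmnb1, Ube2c, Kif11 and Cdc20 ended without any 1 of 14, 13, 12 and 8 of the 18 libraries, and the cause of the differences between sets was not tested.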

How the results depend on the processing

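DN1eP minus NKT-3, with 5 members called, gave the following counts: 3 were called with no filter on low values, 9 (1 higher, 8 lower) with upper-quartile scaling, 9 (1 higher, 8 lower) with quantile normalization, 3 when NKT-2 library 6 and NKT-3 library 5 were left out, 9 (7 higher, 2 lower) with all 26 libraries and a set term, and 0 to 11 with 1 library left out. The difference between sets in NKT-3 minus NKT-2 (7 members) gave 0 with a pseudocount of 0.1, 4 with no filter, 20 with quantile normalization, 3 when NKT-2 library 6 and NKT-3 library 5 were left out, and 3 to 9 with 1 library left out. In NKT-3 minus NKT-1 (3 members) it gave 0 with that pseudocount, 6 with upper-quartile scaling, 18 with quantile normalization, and 2 to 5 with 1 library left out. With 1 library left out, DN1eP-NKT minus NKT-1 gave 2 (1 higher, 1 lower) to 12 members. The causes were not tested.

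The other counts stayed within 1.5 times under all alternatives run: with 1 library left out, 43 to 50 for DN1eP minus NKT-1, 42 to 47 for DN1eP minus NKT-2, 43 to 46 against the stage mean, 9 to 17, 54 to 55 and 49 to 53 for DN1eP-NKT minus NKT-2, NKT-3 and the stage mean, 53 to 54 and 54 for NKT-3 minus NKT-2 and NKT-1, and 51 to 53 for DN1eP-NKT minus DN1eP. Of 7048 values of single genes under alternatives, 6863 stayed called or stayed not called, 124 lost a call and 61 gained one. None of these values that was called in the main or the alternative fit changed direction. Values called in neither could change sign and still count as kept. With upper-quartile scaling the all-gene median was -0.06 in DN1eP minus NKT-3, against 0.19 without it, and 827 of 1478 called genes were higher, against 1375 of 1649. The values were -0.03 and 1917 of 4404 in NKT-3 minus NKT-1, against -0.19 and 1272 of 4612. With that scaling 1433 of 2791 called genes were higher in DN1eP minus NKT-2 (1661 of 2613 without it), 1726 of 3468 in DN1eP minus the stage mean (2069 of 3338), 98 of 130 in NKT-2 minus NKT-1 (54 of 103), 1788 of 3809 in NKT-3 minus NKT-2 (1348 of 3684) and 2416 of 4141 in DN1eP-NKT minus DN1eP (1907 of 4020). With quantile normalization 1510 of 3168 were higher in DN1eP-NKT minus NKT-2 (1731 of 2977), 1882 of 3901 in DN1eP-NKT minus NKT-3 (2255 of 3603) and 1762 of 3698 in DN1eP-NKT minus the stage mean (1986 of 3344).

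The labels do not say that replicate numbers pair libraries, and they were not taken as pairs. Same-numbered libraries correlated at -0.12 to 0.45 in the higher-median and -0.36 to 0.02 in the lower-median set, in deviations from group means. In the higher-median set 7 of 16 same-numbered pairs were over 0.1, against 8 of 46 others, and 7 of 13 libraries correlated best with their own number, against 0 of 10 in the lower-median set. DN1eP-NKT 1, NKT-1 1 and NKT-2 1 were also alike in depth, at 15.8 to 19.6 times the shallowest library. Whether they share a run was not tested. With the replicate block, 32 members were called in DN1eP minus NKT-2 and 33 in DN1eP minus the stage mean, against 47 and 44, and 0 and 1 for the differences between sets in NKT-3 minus NKT-2 and NKT-1. Depth limits values near 0 in the shallow libraries, above all in DN1eP 2 to 4 and NKT-3 1 to 3.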
